A study of Mus musculus with 4 samples.

Results

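Neutrophil granule genes are 10 genes whose products fill or surround the granules of neutrophils, the most common granulocytes of blood and marrow. They were taken by symbol from the gene rows of both libraries, so 10 of 32285 genes were described, and all 10 were found in both. Neutrophil precursors make their granules in order. The azurophil granules form first and carry myeloperoxidase (Mpo) and the serine proteases neutrophil elastase (Elane), proteinase 3 (Prtn3) and cathepsin G (Ctsg). The specific granules form later, at the myelocyte and metamyelocyte stages, and carry lactoferrin (Ltf), the cathelicidin Camp, the neutrophilic granule protein Ngp and the iron-siderophore binding lipocalin 2 (Lcn2). S100a8 and S100a9 together form calprotectin, a calcium-binding protein of the cytosol that mature neutrophils hold in very large amounts.

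The cells came from bone and marrow of femur and tibia of untreated INK-ATTAC mice, which carry an inducible caspase 8 driven by a fragment of the p16 promoter. The young library was made from 1 animal of 6 months and the old library from 1 animal of 24 months. Cells that carry blood lineage markers (CD5, B220, CD11b, Gr-1, 7-4 and Ter-119) were depleted on magnetic columns, and live CD45− cells were sorted, so granulocytes were meant to be removed and their share describes what was left after the sort. CITE-seq then read the mRNA and a CD24 antibody tag of each cell as unique molecular identifiers (UMIs), which count molecules. The questions were where the granule genes were found, in which order across granulocytes, and how they differed between the libraries and with CD24 on the cell surface. With 1 mouse per age, a difference between ages cannot be told apart from one between animals or libraries, and no test of age was possible.

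The young library held 10063 cells with 81076421 RNA UMIs (median 6385 per cell) and the old library 5607 cells with 66702846 (median 9711), so old cells were deeper. Each cell was placed in a group by the UMIs of fixed marker genes, none of them a granule gene described here, and a group name means a likeness to those markers. A group needed at least 10 UMIs over at least 3 of its markers and at least 3 times the UMIs of the next group. Predicted doublets numbered 269 young and 57 old cells and were kept. The libraries shared 25 cell barcodes, 19 of them kept in both, and 1 cell in each library's granulocyte-like group had such a barcode. Levels are given in CPM, the UMIs of a gene per 1000000 RNA UMIs of the same cells, with exact 95% intervals. These cover counting error only. The 3′ chemistry counts transcript ends, so CPM values were not divided by gene length.

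Regulation of these genes begins at their promoters, and the specific granule genes are known targets of C/EBP transcription factors. S100a8 (chr3:90669071-90670034) and S100a9 (chr3:90692630-90695721) are neighbours, and Camp (chr9:109847377-109849456), Ngp (chr9:110419808-110423012) and Ltf (chr9:111019292-111042766) lie on one chromosome. Lcn2 is at chr2:32384637-32387739, Mpo at chr11:87793784-87804412 and Ctsg at chr14:56099885-56102574. The 250 bases before the transcription start are shown for the 4 specific granule genes and for Prtn3. Ltf, Camp and Ngp moved together in the cells described below. Lcn2 was found in more of those cells than these genes, and Prtn3 did not move with them. Sequences are from RefSeq for GRCm38.p6, read on the strand of the gene. Capitals mark matches, on either strand, to a C/EBP-like motif written TTNNGNAA. The Ngp promoter (chr9:110419558-110419807, plus strand) held 3 matches, that of Ltf (chr9:111019042-111019291, plus strand) 2, that of Lcn2 (chr2:32387740-32387989, minus strand) 1, and those of Camp (chr9:109849457-109849706, minus strand) and Prtn3 (chr10:79879417-79879666, plus strand) 0.
Ngp: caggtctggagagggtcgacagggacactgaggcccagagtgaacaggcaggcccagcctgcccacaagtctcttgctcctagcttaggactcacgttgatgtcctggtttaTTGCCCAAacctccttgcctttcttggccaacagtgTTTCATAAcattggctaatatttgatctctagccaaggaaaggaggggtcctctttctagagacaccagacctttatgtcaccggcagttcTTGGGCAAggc
Ltf: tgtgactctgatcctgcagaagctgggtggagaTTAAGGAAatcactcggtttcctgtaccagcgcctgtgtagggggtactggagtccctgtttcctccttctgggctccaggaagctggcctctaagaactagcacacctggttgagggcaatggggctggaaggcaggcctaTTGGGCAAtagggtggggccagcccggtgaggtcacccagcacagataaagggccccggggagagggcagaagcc
Lcn2: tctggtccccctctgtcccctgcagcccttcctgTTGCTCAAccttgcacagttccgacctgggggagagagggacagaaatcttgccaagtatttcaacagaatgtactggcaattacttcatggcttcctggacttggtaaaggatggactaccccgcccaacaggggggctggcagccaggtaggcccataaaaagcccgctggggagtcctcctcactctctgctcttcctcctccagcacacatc
Camp: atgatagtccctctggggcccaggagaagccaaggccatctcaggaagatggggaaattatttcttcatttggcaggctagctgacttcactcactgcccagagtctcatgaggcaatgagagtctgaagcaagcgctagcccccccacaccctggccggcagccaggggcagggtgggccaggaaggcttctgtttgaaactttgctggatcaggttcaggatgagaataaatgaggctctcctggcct
Prtn3: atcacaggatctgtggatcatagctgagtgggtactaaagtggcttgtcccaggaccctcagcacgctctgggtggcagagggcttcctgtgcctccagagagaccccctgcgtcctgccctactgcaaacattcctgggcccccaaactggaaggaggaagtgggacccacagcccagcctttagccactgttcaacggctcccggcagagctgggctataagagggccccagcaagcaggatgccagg

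The C/EBP-like letters were found in 5 of the 10 promoters (Lcn2, S100a8, S100a9, Ngp and Ltf) and in 36.8% of the 32851 promoters in the table. A PU.1-like GAGGAA, on either strand, was found in 7 of the 10, among them all 4 azurophil genes, and in 23.3% of all promoters. The TATA box letters TATAAA, on the strand of the gene, were found in 1 of the 10, S100a8, and in 7.59% of all promoters. A match of letters is a description of the sequence and not a binding site.

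Granulocyte-like cells were found in both libraries despite the lineage depletion and the CD45− sort. In the young library 163 cells met the rule (1.62%, 1.38 to 1.89), and in the old library 306 did (5.46%, 4.88 to 6.08). Young ones had a median depth of 2337 UMIs and old ones of 3841, and 4 and 2 of them were predicted doublets. Ptprc, which encodes CD45 and was looked at after the groups had been seen, had a UMI in 89.6% of the young (83.8 to 93.8) and 97.4% of the old granulocyte-like cells (94.9 to 98.9). In B lineage-like cells the share was 49.4% and 57.7%, and in all other kept cells 3.45% and 3.35%. The mRNA of the sorted-out protein was therefore present in most of these cells. Their median UMI sums for each other cell type's markers were 0 or 1, against 62 young and 81.5 old UMIs of granulocyte markers. Cells near the limit, with 5 to 9 granulocyte marker UMIs, numbered 82 and 43.

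A further 74 young and 37 old cells met the granulocyte rule but also held markers of another group. Their median was 199 and 238 UMIs of marrow stroma markers (such as Lepr, Adipoq and Cxcl12) beside 64.5 and 133 UMIs of granulocyte markers. These cells were deep, with a median of 8906 and 16684 UMIs, and Scrublet called 3 and 13 of them doublets. They are named below as cells with granulocyte and other markers, and whether they were pairs of cells was not tested.

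Granulocyte-like cells and these cells together held nearly all calprotectin and specific granule UMIs. Of the S100a9 UMIs, 59.8% of the young and 81.3% of the old lay in granulocyte-like cells, and 38.7% and 17.2% in cells with granulocyte and other markers. For the 4 specific granule genes together the shares were 40.6% and 66.2% in granulocyte-like cells and 56.2% and 29.9% in cells with both kinds of markers. The azurophil genes lay elsewhere. Granulocyte-like cells held 2 of 544 young and 3 of 577 old azurophil UMIs, and all of those were Prtn3.

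**Figure D1:**
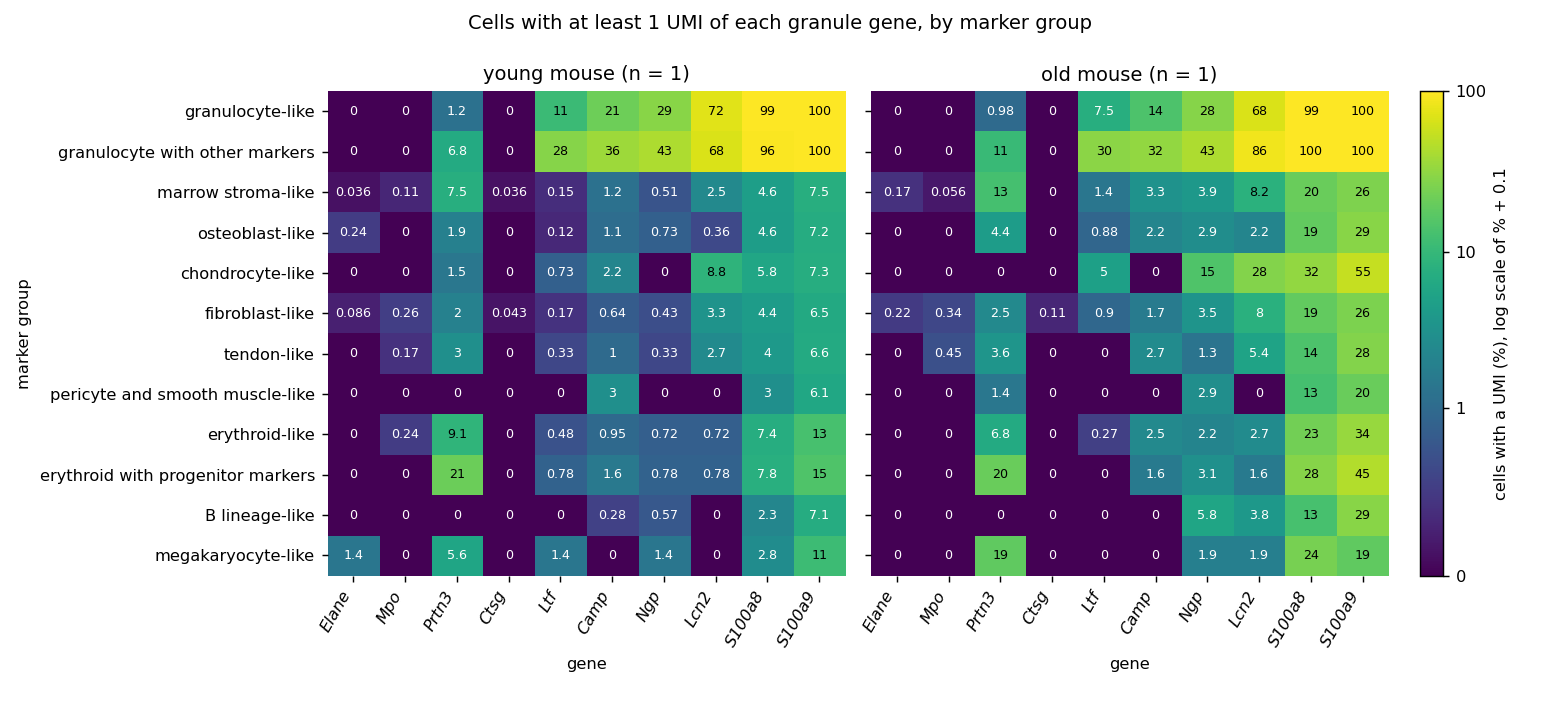
Share of cells with at least 1 UMI of each granule gene (columns) in each marker group (rows), for the young (left) and old (right) mouse, with colour on a log scale and the percentage in each field. S100a8 and S100a9 fill the 2 granulocyte rows in both mice, Elane, Mpo and Ctsg are at 0 there, and Prtn3 is lit in marrow stroma-like, erythroid and megakaryocyte-like rows.

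Among granulocyte-like cells, calprotectin was found in nearly every cell. S100a9 had a UMI in 163 of 163 young and 305 of 306 old cells, with 57799 and 185694 UMIs in all, which is 115994 and 117921 CPM. Young cells held 2 (lowest), 252 (median) and 2552 (highest) S100a9 UMIs, and old cells 0, 357.5 and 4356. S100a8 followed with 82654 and 92703 CPM and medians of 168 and 254 UMIs per cell. The ranges of the libraries overlapped for both genes.

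The specific granule genes were found in fewer of these cells. Lcn2 had a UMI in 72.4% of young (64.9 to 79.1) and 67.6% of old granulocyte-like cells (62.1 to 72.9). Ngp had one in 29.4% and 28.4%, and Camp in 21.5% (15.4 to 28.6) and 14.4% (10.6 to 18.8). Ltf was the rarest, at 11.0% (6.68 to 16.9) and 7.52% (4.82 to 11.1). The order Lcn2, Ngp, Camp, Ltf was the same in both libraries, while the intervals of Ngp and Camp overlapped in the young library and those of Camp and Ltf in both. The order also held in cells thinned to 2000 UMIs, where the shares were 79.0%, 37.1%, 25.7% and 15.2% of 105 young cells and 61.6%, 24.3%, 11.0% and 7.88% of 292 old cells.

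UMIs of the specific granule genes were concentrated in few cells. The 10 cells with most Camp UMIs held 87.4% of the young and 82.2% of the old Camp UMIs, and the top cell alone held 842 of 3352 and 1322 of 7655. For Ltf the top 10 cells held 92.5% and 80.6%. For S100a9, by contrast, they held 28.5% and 16.8%. Thus calprotectin was spread over the granulocyte-like cells, and Camp and Ltf rested on a small number of them.

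The 3 rarer genes were found in the same cells. Of the 18 young and 23 old granulocyte-like cells with Ltf, 16 and 23 also held both Camp and Ngp. In contrast, 112 young and 215 old cells held none of Ltf, Camp and Ngp, and their median S100a9 count was still 130 and 197 UMIs. The 14 young and 25 old cells with at least 100 UMIs of these 3 genes held 93.3% and 95.5% of their UMIs. Those cells were deeper, with a median of 4650.5 and 12333 UMIs against 2129.5 and 3382 in cells with none, and their median Lcn2 count was 74 and 162 against 1 and 1. Their S100a9 level was 192238 and 186429 CPM, against 81575 and 74138 CPM in cells with none.

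**Figure D2:**
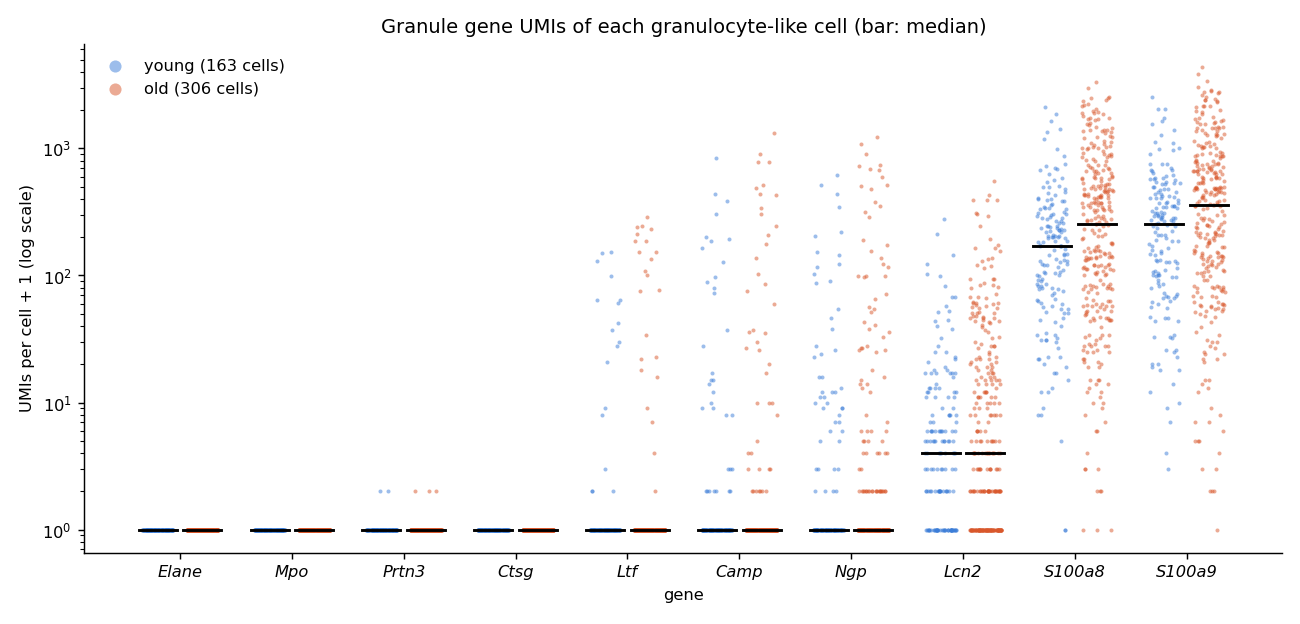
UMIs of each granule gene in every granulocyte-like cell, as UMIs + 1 on a log axis, with 163 young cells in blue, 306 old cells in orange and the median as a bar. Elane, Mpo and Ctsg lie at 0 in all of them, Ltf, Camp and Ngp split into many cells at 0 and a few with 100 or more UMIs, and S100a8 and S100a9 form a continuous range with medians between 168 and 357.5 UMIs.

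To order the genes along maturation, granulocyte-like cells were divided by stage markers that are not granule genes described here. Middle-stage markers were Cebpe, a transcription factor that granulocyte precursors need to make specific granules, with Fcnb, Chil3, Itgb2l and Ceacam10. Late-stage markers included the chemokine receptor Cxcr2, the G-CSF receptor Csf3r, Retnlg and Il1b. Cells with late markers only numbered 111 young and 211 old. Cells with up to 5% middle-marker UMIs among middle and late ones were called mostly late (43 and 83), and cells above 5% middle-rich (9 and 12). These are ranges of a score and not cell types, and a cell with few UMIs falls more easily into the late-only range. The median depth was 2048 and 3409 UMIs in late-only, 3326 and 6712 in mostly late and 4884 and 14609.5 in middle-rich cells.

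Cells with granulocyte and other markers, with 62.6% of all young and 32.8% of all old Ltf UMIs, are not part of these ranges. Among granulocyte-like cells, Ltf was found mostly in middle-rich ones. It stood at 11757 CPM in the young (733 UMIs in 9 cells) and 12349 CPM in the old middle-rich cells (1986 UMIs in 12 cells), at 862 and 921 CPM in mostly late cells, and at 3 UMIs in 111 young and 0 UMIs in 211 old late-only cells. Camp stood at 42359 and 38738 CPM, then at 3681 and 2508 and then at 224 and 16.4 CPM over the same ranges. Ngp, at 41108 and 48232 CPM in middle-rich cells, was at 4864 and 6494 in mostly late and 534 and 177 CPM in late-only cells. For each of the 3 genes the ranges thus stood in the same order in both libraries.

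Lcn2 was still present in late-only cells. Its levels were 15446 and 19854 CPM in middle-rich, 4910 and 7111 in mostly late and 1439 and 1486 CPM in late-only cells, where 62.2% and 57.8% of cells held it. S100a9 was at 190784 and 185754 CPM in middle-rich cells and at 84677 and 75959 CPM in late-only cells. S100a8 was at 152852 and 149559 CPM and at 58421 and 56785 CPM. With the granule genes of each cell thinned to 2000 UMIs, Ltf was found in 88.9% of 9 young and 100% of 11 old middle-rich cells and in 1.69% of 59 and 0% of 200 late-only cells. The stage markers were not thinned. Depth could therefore still decide which range a cell fell in, and the order of the ranges at equal depth was not tested. No interval or test over cells is given for differences between the ranges because all cells of a library came from 1 mouse.

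**Figure D3:**
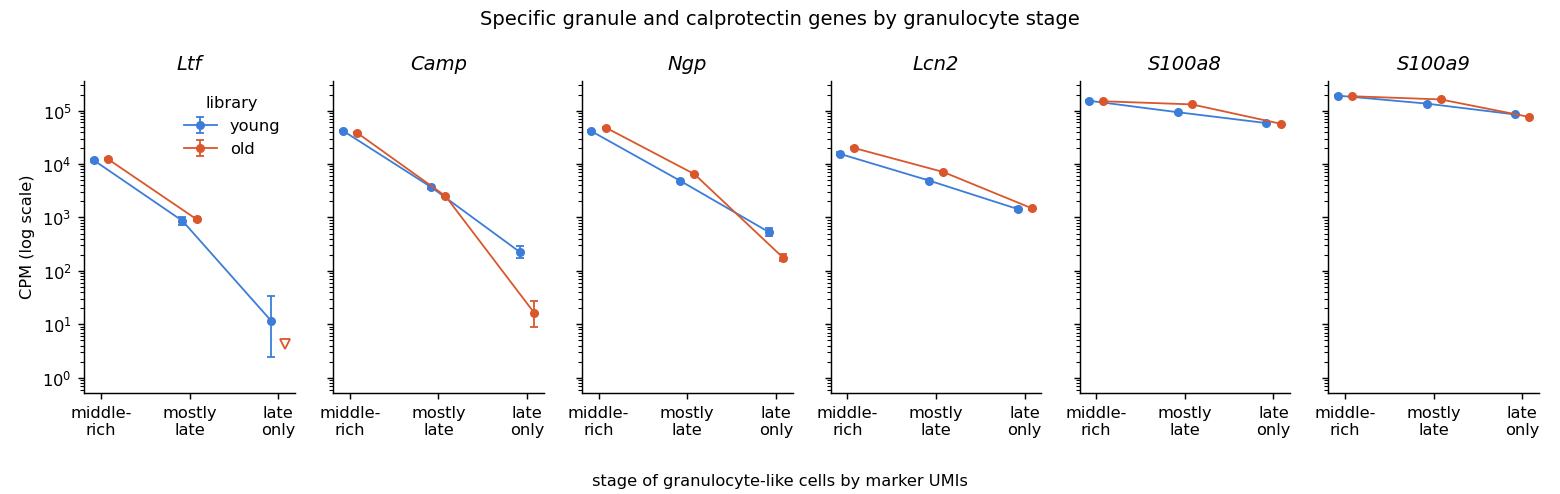
Level in CPM (log axis) of the specific granule genes and S100a8 and S100a9 in granulocyte-like cells ordered from middle-rich (left) to late markers only (right), young in blue and old in orange, with exact 95% counting intervals and an open triangle at the upper limit where no UMI was found. Ltf, Camp and Ngp go from 11757 CPM or more to 534 CPM or less, while Lcn2 (15446 to 1439 CPM in the young) and S100a9 (190784 to 84677 CPM) differ less.

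Azurophil genes were at or near 0 in granulocyte-like cells. Elane, Mpo and Ctsg had 0 UMIs in 498293 young and 1574736 old UMIs of these cells, which allows up to 6.02 and 1.91 CPM each at 3 counts. Prtn3 had 2 and 3 UMIs (4.01 and 1.91 CPM). The early-stage markers, chosen for the promyelocytes that make azurophil granules, were scarce only in part. Of 8 such genes Ms4a3 had 0 UMIs in both libraries, Nkg7 0 and 1, Gfi1 2 and 2, Prom1 3 and 1, and Myb 5 and 15, while Igsf6, Hk3 and Plac8 were found in 13.5% to 57.8% of cells. In all kept cells Elane had 9 young and 6 old UMIs, Mpo 20 and 7, and Ctsg 2 and 2, and no cell held more than 2 UMIs of any of these 3 genes. At this depth their RNA was not detectable in the granulocyte-like cells.

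Prtn3 was the exception among azurophil genes, with 513 young and 562 old UMIs, 98.6% and 98.8% of them outside both granulocyte groups. Marrow stroma-like cells, the Lepr and Cxcl12 expressing cells that support blood formation, held 46.6% and 51.2% of all its UMIs. Their level was 15.2 CPM in the young (13.3 to 17.2, 239 UMIs) and 19.3 CPM in the old library (17.1 to 21.7, 288 UMIs), and 7.54% and 13.1% of these cells had a UMI. In fibroblast-like cells the level was 2.49 CPM (1.84 to 3.30) and 2.13 CPM (1.39 to 3.11), and in osteoblast-like cells 2.93 and 3.07 CPM. These intervals lay below those of marrow stroma-like cells in both libraries.

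Blood groups differed among themselves in Prtn3. Cells with erythroid and progenitor markers had it in 20.9% (14.3 to 29.0) of 129 young and 20.3% (11.3 to 32.2) of 64 old cells, at 9.65 and 9.94 CPM, and were deep, with medians of 21626 and 32069.5 UMIs. Erythroid-like cells stood at 6.04 and 4.19 CPM. Megakaryocyte-like cells held 5 young and 15 old UMIs (4.45 CPM, 1.44 to 10.4, and 13.8 CPM, 7.75 to 22.8), intervals that overlapped between libraries. The old megakaryocyte-like interval also overlapped that of old marrow stroma-like cells, and the young granulocyte-like interval (0.486 to 14.5 CPM on 2 UMIs) that of young ones. The young intervals of cells with erythroid and progenitor markers (31 UMIs) and of cells with granulocyte and other markers (6.90 CPM on 5 UMIs) overlapped it too. The order of these neighbours was therefore not resolved at this depth. B lineage-like cells held 0 in 352 young cells, and 0 in 52 old cells. At 3 counts the young 0 limits the share of cells with a UMI to 0.852%, which is no limit on cells that hold the transcript. The depth of B lineage-like and marrow stroma-like cells was alike in the young library, with medians of 4735.5 and 5061 UMIs. Most cells with Prtn3 had 1 UMI (86.7% and 84.2% of them), and in the groups of at least 20 cells none held more than 8.

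After thinning to 2000 UMIs, Prtn3 was found in 2.89% of young and 3.70% of old marrow stroma-like cells and in 0 of 105 and 0 of 292 granulocyte-like cells. Among the 10 other groups of at least 20 cells, the highest thinned share in the young library was 3.10%, in cells with erythroid and progenitor markers. In the old library it was that of marrow stroma-like cells. Prtn3 lies at chr10:79879667-79883174 and is followed by Elane (chr10:79886312-79888216) and by Cfd (chr10:79890853-79892655), which encodes complement factor D. In marrow stroma-like cells Elane had 2 and 3 UMIs, and Cfd 17 and 88 (1.08 and 5.90 CPM). The neighbours therefore did not share the level of Prtn3 in these cells.

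The genes whose levels ran most like those of the azurophil genes were named by correlation of log2(CPM + 1) over 24 combinations of 12 groups and 2 libraries. They were Mdga1 (Pearson r = 0.945), Fam174b (0.923), Angpt1 (0.842), Gfod2 (0.826) and Gm16225 (0.810). Mdga1, Angpt1 and Gm16225 had their highest level in marrow stroma-like cells, and Fam174b and Gfod2 in megakaryocyte-like cells. Because Elane, Mpo and Ctsg were near 0, this pattern is in effect that of Prtn3. For the specific granule genes the likest were Ifitm6 (0.993), Wfdc21 (0.985), Chil3 (0.984), Cebpe (0.984) and Cd177 (0.983), of which Chil3 and Cebpe were among the markers that set the groups. These are descriptions, since combinations share libraries.

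Lcn2 was the other gene with a clear level outside granulocytes. It had 606 young and 1145 old UMIs outside both granulocyte groups (12.4% and 9.22% of its total). Chondrocyte-like cells stood highest, at 82.1 CPM in the young (66.3 to 100.4) and 53.8 CPM in the old library (34.5 to 80.1), yet 1 young cell held 47 of the 94 UMIs. Fibroblast-like cells had 7.89 and 22.5 CPM and tendon-like cells 11.3 and 13.1 CPM. Erythroid-like cells, which were deeper (medians of 17591 and 17401 UMIs against 7655 and 11038.5 in chondrocyte-like cells), had 0.324 and 1.28 CPM. The amount of Lcn2 relative to S100a9 also differed between groups. Per 100 S100a9 UMIs there were 70.1 young and 87.0 old Lcn2 UMIs in fibroblast-like cells, but 3.82 and 4.55 in granulocyte-like cells. In chondrocyte-like cells there were 940 young and 25.5 old, where the young value stood on 10 S100a9 UMIs and on the cell with 47 Lcn2 UMIs.

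**Figure D4:**
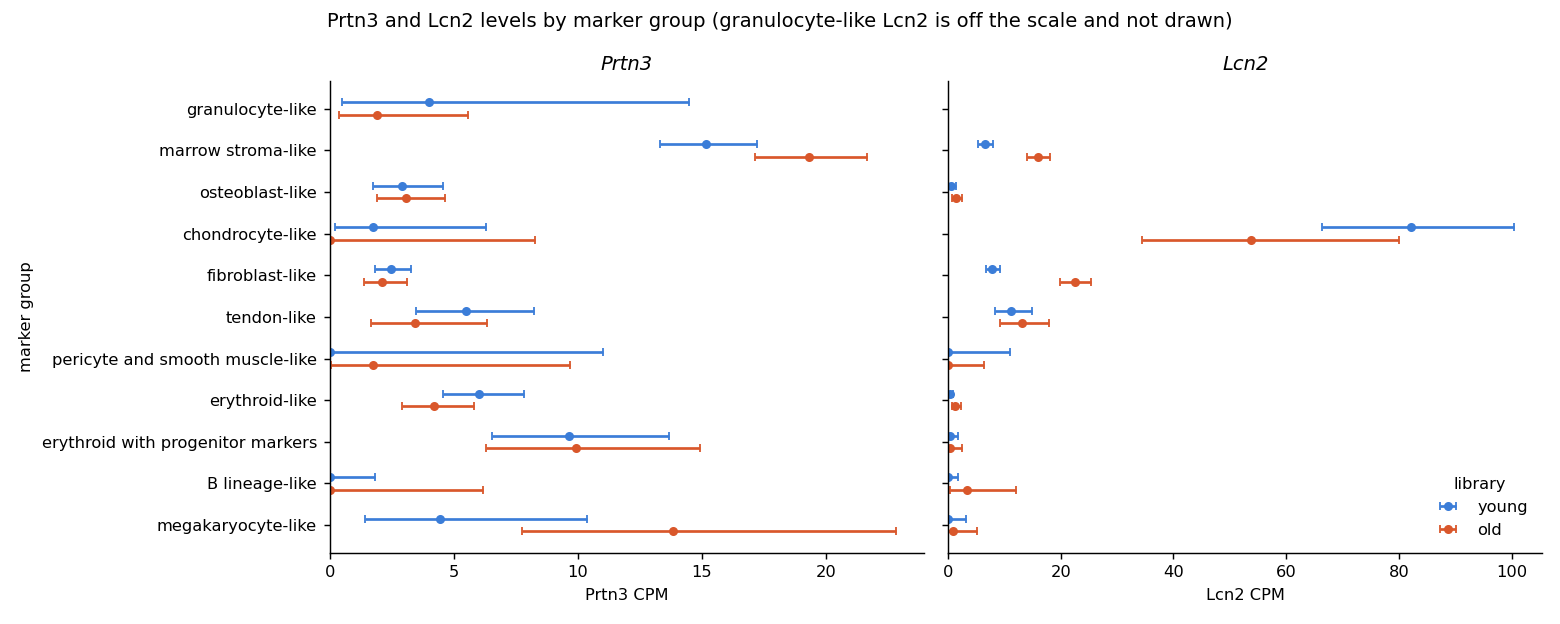
CPM of Prtn3 (left) and Lcn2 (right) by marker group with exact 95% counting intervals, young in blue and old in orange. Among the groups drawn, each of at least 20 cells, the highest Prtn3 points are those of marrow stroma-like cells (15.2 and 19.3 CPM). Their intervals overlap those of young granulocyte-like cells, young cells with erythroid and progenitor markers and old megakaryocyte-like cells. The highest Lcn2 points drawn are those of chondrocyte-like cells (82.1 and 53.8 CPM), and the Lcn2 level of granulocyte-like cells is off the scale and not drawn.

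S100a8 and S100a9 were found at low level in each of the 10 other groups of at least 20 cells. RNA released from broken cells is counted with any droplet it enters, and B lineage-like and erythroid-like cells, which are not known for calprotectin, give its measure here. In B lineage-like cells S100a9 had a UMI in 7.10% of young (4.65 to 10.3) and 28.8% of old cells (17.1 to 43.1), and in erythroid-like cells in 13.4% and 34.3%. Marrow stroma-like cells (7.51% and 26.0%), osteoblast-like cells (7.15% and 29.0%) and fibroblast-like cells (6.52% and 25.6%) stood at or near the B lineage-like share, so a share of that size cannot be told apart from background. Levels were less alike than shares. S100a9 in marrow stroma-like cells was at 30.2 CPM (27.5 to 33.0) in the young and 73.5 CPM (69.2 to 78.0) in the old library, against 12.4 (8.03 to 18.3) and 30.3 CPM (17.9 to 47.8) in B lineage-like cells. Without 4 young and 4 old marrow stroma-like cells of 50 or more calprotectin UMIs it was at 16.1 CPM (14.2 to 18.2), an interval that overlapped the B lineage-like one, and at 62.6 CPM (58.7 to 66.8), one that did not. Erythroid-like cells, which were deeper (medians of 17591 and 17401 UMIs), had S100a9 at 6.47 CPM (4.94 to 8.33) and 19.7 CPM (16.8 to 22.9). These intervals lay below those of marrow stroma-like cells in both libraries, also without the cells of 50 or more calprotectin UMIs. In CPM and without those cells, the young marrow stroma-like level thus overlapped only the B lineage-like measure. By share of cells the order was the reverse, with S100a9 in 13.4% and 34.3% of erythroid-like against 7.51% and 26.0% of marrow stroma-like cells. CPM is divided by depth, so an equal amount of released RNA per cell gives a lower CPM in deeper cells. Whether marrow stroma-like cells held more S100a9 than background was not tested. Old chondrocyte-like cells stood above these groups, with S100a9 in 22 of 40 cells (55.0%, 38.5 to 70.7) and 211 CPM. After thinning, 3 of 31 of them (9.68%, 2.04 to 25.8) and 5 of 50 B lineage-like cells (10.0%, 3.33 to 21.8) held it, intervals too wide for a comparison.

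A few cells of other groups held far more. In the 10 other groups of at least 20 cells, 5 young and 4 old cells had 50 or more calprotectin UMIs and together held 32.8% and 9.21% of the calprotectin UMIs of those groups. Of them, 4 and 4 were marrow stroma-like. Their median granulocyte marker count was 7 and 8 UMIs, below the limit of 10 that names a granulocyte-like cell. In the remaining cells S100a8 and S100a9 stood in a ratio of 0.668 young (437 to 654 UMIs) and 0.679 old (1257 to 1850). In granulocyte-like cells the ratio was 0.713 (0.704 to 0.722) and 0.786 (0.781 to 0.792).

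The low level outside granulocytes was higher in the old library. The old share of cells with S100a9 exceeded the young share in 10 of 10 groups, and its interval lay above the young one in 8 of 10. The gap was smaller after thinning to equal depth. Thinning draws from each cell's own UMIs, so a fixed amount of released RNA per cell is cut more in deeper cells. In erythroid-like cells, whose full depth was alike (medians of 17591 and 17401 UMIs), the full-depth shares were 13.4% and 34.3%. With each cell thinned to 2000 UMIs (770 young and 496 old cells of all groups were too shallow), the share over all cells placed in other groups went from 7.54% to 2.44% in the young and from 27.5% to 5.42% in the old library. The old share stayed above the young in 10 of 10 groups, with intervals apart in 2. For Ngp, thinned shares were higher in the old library in 6 of 10 groups with intervals apart in 1, and for Elane, Mpo and Ctsg no cell was left in most groups.

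**Figure D5:**
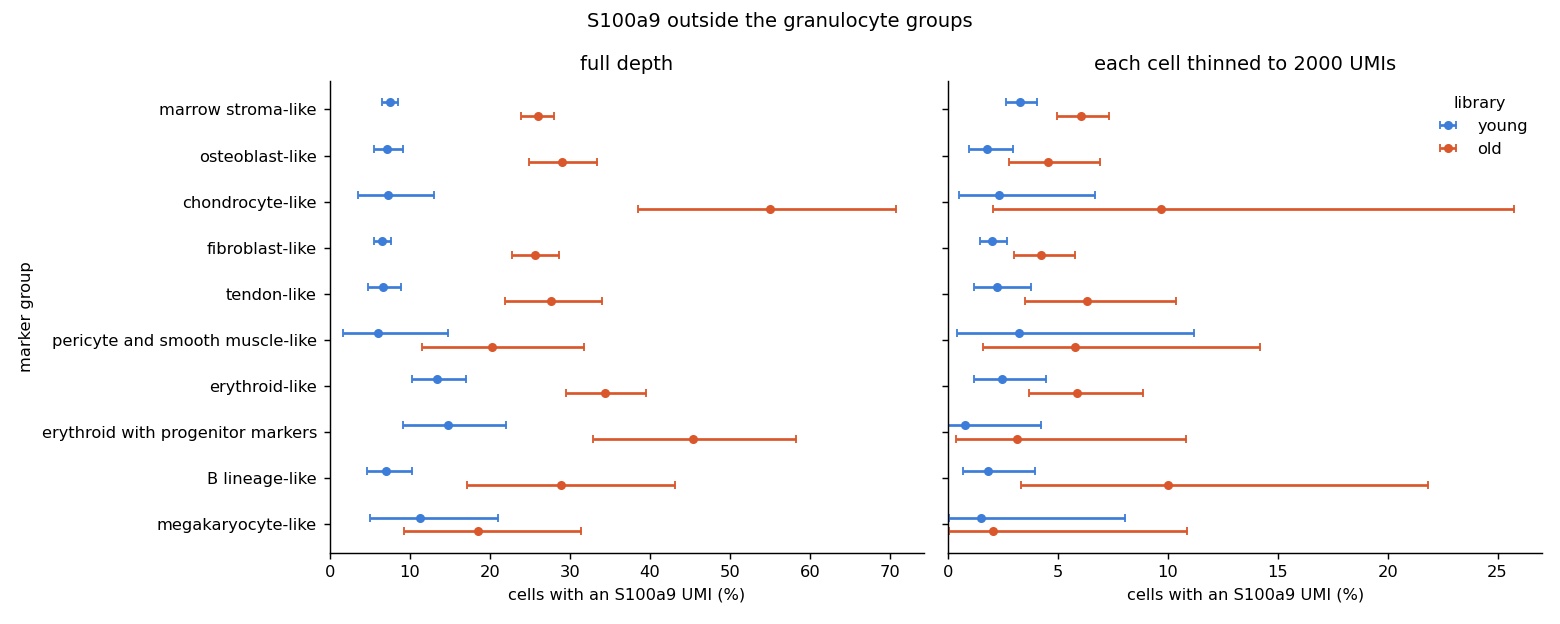
Share of cells with an S100a9 UMI in 10 groups other than granulocytes, at full depth (left) and with each cell thinned to 2000 UMIs (right), young in blue and old in orange with exact 95% binomial intervals. Old shares lie to the right of young ones in every group in both panels, with 55.0% against 7.30% in chondrocyte-like cells at full depth, and the distance shrinks after thinning.

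Summed over all kept cells, S100a9 stood at 1192 CPM in the young and 3424 CPM in the old library, a ratio of 2.87 (2.85 to 2.89). S100a8 differed by 3.03 (3.00 to 3.05), Lcn2 by 3.09 (2.99 to 3.20) and Ngp by 2.45 (2.38 to 2.51). Ltf was at 30.0 and 57.4 CPM, Camp at 109.6 and 185.2 CPM, and Prtn3 at 6.33 and 8.43 CPM, a ratio of 1.33 (1.18 to 1.504). Thus 4 of the 7 granule genes with at least 100 UMIs were 2-fold or more higher in the old library, against 2.83% of the 14589 genes counted in the same way, and 0 of 7 were 2-fold or more lower, against 1.25%. The 3 remaining azurophil genes had too few UMIs to compare, and the interval for Mpo (0.246 and 0.105 CPM) included no difference.

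Inside granulocyte-like cells the libraries were much closer. S100a9 differed by 1.02 (old over young, 1.01 to 1.03), S100a8 by 1.12, Ngp by 1.03 and Lcn2 by 1.21 (1.16 to 1.27). Camp was lower in the old library, at 4861 against 6727 CPM, a ratio of 0.723 (0.694 to 0.753), and Ltf stood at 0.891 (0.825 to 0.963). The interval for Camp covers counting error only, while 10 cells held 87.4% of its young and 82.2% of its old UMIs in these cells. Cells with granulocyte and other markers, with 61.0% of all young and 36.4% of all old Camp UMIs, were not part of this comparison. Of the 6 granule genes with at least 100 UMIs, 0 passed 2-fold in either direction, against 1.71% of 2044 genes higher and 3.03% lower. The share of granulocyte-like cells was 1.62% and 5.46% in the same libraries. With both granulocyte groups removed, the old over young ratio was still 2.91 for calprotectin and 2.82 for the specific granule genes, although 1.48% and 1.53% of all S100a9 UMIs and 12.4% and 9.22% of all Lcn2 UMIs were then left.

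Genes that share the granules followed the members only in part. Of 17 other specific and gelatinase granule genes, 14 were highest in granulocyte-like cells in both libraries, with the protease inhibitor Slpi (3018 and 4251 CPM) and Wfdc21 (1507 and 2541 CPM) highest by the mean of both libraries, although Pglyrp1 stood above Wfdc21 in the young (1690 CPM). Lowest by that mean were the membrane metalloprotease Mmp25 (74.3 and 88.3 CPM) and Chil1 (188.6 and 201.9 CPM), which stood higher in chondrocyte-like cells, although Olfm4 was below Chil1 in the old library (134 CPM). Of 11 other azurophil granule and protease-handling genes, 4 were highest in granulocyte-like cells. The granule proteoglycan serglycin Srgn (6962 and 8025 CPM) and lysozyme Lyz2 (5314 and 5294 CPM) led these, while Bpi had 0 UMIs and Prss57 3 and 3. Of 8 transcription factors of granulopoiesis, 2 were highest there. Cebpb was at 4204 and 4449 CPM and Spi1, which encodes PU.1, at 353 and 412 CPM, while Irf8 had 0 UMIs and Per3 2 and 5.

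CD24, a surface protein used to mark cells in the study, was measured by the antibody in the same cells, so CD24+ and CD24− cells could be compared within each animal and tested across both. A cell was CD24+ above an antibody count of 312.8 in the young and 396.6 in the old library, which gave 1573 and 760 CD24+ cells. Of these, 344 young and 332 old cells were erythroid-like, and 349 and 49 were B lineage-like. Among marrow stroma-like cells 4.39% and 2.79% were CD24+. Over all kept cells, CD24+ and CD24− sums thus held different mixtures of groups. A difference within a group was tested only for granulocyte-like cells. UMIs were summed per mouse and status, and the 4 sums were compared with edgeR's quasi-likelihood test with the mouse as a block, adjusted over all 16230 genes tested (n = 2 mice).

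Over all kept cells, S100a9 stood at 637 CPM in CD24+ and 1367 CPM in CD24− cells of the young mouse and at 1908 and 3837 CPM in the old mouse. It was lower in CD24+ cells of both mice, by edgeR log2 fold change −0.79 ± 0.35 (SE), adjusted p = 0.0484. S100a8 stood at 503 and 1001 CPM and at 1473 and 2993 CPM, and its edgeR log2 fold change was −0.74 ± 0.33, adjusted p = 0.0480. Lcn2 was at 44.9 and 65.0 CPM and at 109 and 207 CPM (edgeR −0.47 ± 0.19, adjusted p = 0.0322). Prtn3, which lay mostly in marrow stroma-like cells, was at 4.31 and 6.97 CPM and at 3.78 and 9.69 CPM (edgeR −0.75 ± 0.28, adjusted p = 0.0185).

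Thus 4 of 7 granule genes tested were called lower and 0 higher, against 29.0% of all genes called lower and 28.5% called higher. Ltf (−0.35), Camp (−0.21) and Ngp (−0.24) were also below 0 on the log2 scale and did not pass edgeR's threshold (adjusted p 0.148 to 0.357). Elane, Mpo and Ctsg were too rare to be tested. The granulocyte-like cells were part of these sums, and 8 young and 33 old of them (4.91% and 10.8%) were CD24+, against 15.6% and 13.6% of all kept cells. With both granulocyte groups removed, S100a9 was still lower in CD24+ cells (edgeR log2 fold change −1.04) and Ngp was then called as well (−1.50, adjusted p = 0.00497). Without the mouse as a block only Prtn3 passed (adjusted p = 0.0472), and S100a9 had an adjusted p of 0.447, while DESeq2 called S100a8 and S100a9 but not Prtn3 (0.115) or Lcn2 (0.0701). With the top 10% of antibody counts as CD24+, only Prtn3 passed.

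Scaling moved the balance of calls over all genes, and all 7 granule genes tested stayed below 0 under both scalings. TMM scaling gave 4624 genes higher and 4708 lower in CD24+ cells, and library totals alone gave 3112 and 5118, with the median gene at −0.05 and −0.32. Relative to that median, S100a9 was at −0.74 under both and Prtn3 at −0.70 under both. Among the other granule genes in this comparison, 11 of 17 specific and gelatinase genes were called lower and 0 higher (median log2 fold change −0.82). Of 10 azurophil and protease-handling genes, 6 were lower and 1 higher (−0.56), and of 8 transcription factors 5 were lower and 1 higher (−1.09).

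Inside granulocyte-like cells 0 of the 6 granule genes tested passed. Of 3240 genes, edgeR called 1 (0.0309%) higher in CD24+ cells, the immunoglobulin light chain gene Igkc, named after its value was seen because it was the single call, and 0 lower, while 127 had an unadjusted p under 0.05, and DESeq2 called 1 higher and 0 lower. Ngp stood at 15486 CPM in 8 young CD24+ cells against 6512 in 155 CD24− cells, and at 7744 against 7265 CPM in 33 and 273 old cells. Its edgeR log2 fold change was 0.87 ± 0.36 with an adjusted p of 0.999 (unadjusted 0.0454). These values rested on few cells. A CD24+ cell of the young mouse, with 11463 UMIs, held 513 of the 551 Ngp UMIs of its sum, and without it the other 7 cells stood at 1576 CPM, below the CD24− level. In the old mouse a cell held 1218 of 1941, and the other 32 cells stood at 3169 CPM. Camp was at 11130 against 6388 and at 5801 against 4683 CPM (edgeR 0.75 ± 0.30, adjusted p = 0.999). The same 2 cells held 382 of 396 young and 1322 of 1454 old CD24+ Camp UMIs, and without them the CD24+ levels were 580 and 579 CPM. With the top CD24− cell of each mouse left out as well, the CD24− levels of Camp were 4693 and 4042 CPM and those of Ngp 5324 and 6524 CPM, so the direction of Camp and Ngp turned with 1 cell per mouse. S100a9 lay above in the young (138557 against 114259 CPM) and below in the old mouse (93624 against 122520 CPM), with edgeR at 0.14 ± 0.44.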

How the data were processed

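RNA and CD24 antibody tags were measured in the same cells of 1 young and 1 old mouse. The authors deposited raw UMI counts per gene and barcode. The file headers name Cell Ranger 6.1.1, and the submitters' processing notes name mm10, R 4.0.3 and Seurat 4.0. Replicates were not pooled. Barcodes with at least 200 genes and at most 20% mitochondrial UMIs were kept, which left 10063 of 11371 young and 5607 of 6729 old barcodes. Doublets were predicted with Scrublet in scanpy 1.11.5 and kept, and their removal was an alternative.

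The granule genes, marker lists and lists of other granule genes were chosen with earlier results of these data known, and the thresholds of the marker groups and stages were set after values had been seen. All 10 granule genes were described. Of each list of other granule genes, the pair highest and the pair lowest by CPM in granulocyte-like cells (by the mean of both libraries) were named, and 5 genes most correlated with the azurophil and the specific set. For thinning, 2000 UMIs were drawn per cell without replacement. Intervals on CPM, shares and ratios are exact 95% Poisson or Clopper-Pearson intervals and cover counting error only, and a count of 0 was given a limit of 3 counts. With 1 mouse per age, genes with at least 100 UMIs in both libraries together were compared by a fold of 2, with no test.

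CD24+ cells were set by Otsu's threshold on the log antibody count of each library. Counts were summed per mouse and CD24 status and tested in R 4.3.3 with edgeR 4.0.16 (quasi-likelihood, TMM, filterByExpr), with Benjamini-Hochberg adjustment over all genes tested. The mouse was a block because both sums of a pair came from the same animal. This left 1 residual degree of freedom, so the spread was mostly borrowed across genes. DESeq2 1.42.0 was an alternative. The scripts were tested on simulated data. Genes given a log2 change of 2 were called in 95% of cases over all kept cells and in 47% in granulocyte-like cells. For a log2 change of 4 the shares were 100% and 74%. Of the calls, 6.25% and 3.2% were false. Each simulation changed 200 genes, while 9332 genes were called in the data over all kept cells. The false share was not measured with so many genes changed. In granulocyte-like cells a log2 change of 2 or 4 can thus be missed. Promoter sequences and gene positions are from RefSeq for GRCm38.p6, the release that mm10 follows.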

Additional observations from a re-analysis of the deposited data

Results flagged for a closer look

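In granulocyte-like cells, 4 granule genes stood higher in CD24+ than in CD24− cells of the young mouse, the reverse held in the old mouse, and this difference between the mice was not tested. On the log2 scale of CPM, Ltf stood at 1.40 (young) and −0.18 (old), Lcn2 at 0.93 and −0.040, S100a8 at 0.44 and −0.40, and S100a9 at 0.28 and −0.39. The young CD24+ sum held 8 cells and the old one 33. In the young sum 1 cell held all 150 Ltf UMIs and 210 of the 282 Lcn2 UMIs, and without it Ltf was at 0 UMIs and Lcn2 at 2985 CPM in the other 7 cells, against 4158 CPM in CD24− cells. S100a8 and S100a9 were then at 93250 and 119703 CPM, still above the young CD24− levels of 80610 and 114259 CPM.

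Granule gene UMIs were also present in barcodes that had been left out, above the limit that a count of 0 allows (3 counts). Barcodes with fewer than 200 genes held 43 (young) and 83 (old) granule gene UMIs. Barcodes with over 20% mitochondrial UMIs held 1269 and 2459, of which S100a9 made up 737 and 1459, and 5 and 11 of these barcodes met the rule for a granulocyte-like cell.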

How the results depend on the processing

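Of 78 tested values of single granule genes under another CD24 setting, 65 kept their direction and side of the threshold, 8 lost the call, 2 gained it and 3 changed sign. Of 26 values with 1 mouse left out, which have no test, 22 kept their sign and 4 changed it. Calprotectin in granulocyte-like cells, at 198648 CPM in the young and 210624 in the old library, was at 203850 and 218467 with a mitochondrial limit of 10%, 210424 and 211643 without predicted doublets, 205792 and 212072 with at least 20 marker UMIs, and 254267 and 273463 with the granule genes left out of the denominator. The specific granule genes (20091 and 19164 CPM) were at 21326 and 20533, 21533 and 19387, 21223 and 19268, and 25716 and 24881 in the same order. The share of granule gene UMIs in granulocyte-like cells (56.4% and 80.0%) was 55.6% and 79.5% with the 10% limit, 55.3% in the young with at least 20 marker UMIs, and 82.1% in the old without doublets. The share of other cells with S100a9 was 2.44% and 5.42% after thinning, from 7.54% and 27.5%. The old over young ratio over all kept cells (2.94 for calprotectin and 2.25 for the specific granule genes) was 2.76 and 2.16 without doublets and 2.91 and 2.82 without both granulocyte groups. The cause of these shifts was not tested.

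The pairing of CD24+ and CD24− sums within a mouse mattered. Without the replicate block, edgeR called 8112 genes over all kept cells against 9332 with it, and 0 in granulocyte-like cells against 1, with 179 genes at an unadjusted p under 0.05. The other counts in granulocyte-like cells were 64 with no filter on low counts, 9 without doublets and 13 with the top 25% of antibody counts as CD24+. There, S100a8 and S100a9 turned to −0.12 and −0.20 on the log2 scale with no filter, and S100a9 to −0.053 with the top 25%. With 1 mouse left out, Lcn2 ranged from −0.040 to 0.93, Ltf from −0.18 to 1.40, S100a8 from −0.40 to 0.44 and S100a9 from −0.39 to 0.28, the negative value coming from the old mouse alone each time. The young CD24+ granulocyte-like sum held 8 cells, which limits this comparison.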

Other observations

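Cells that met no marker rule held calprotectin too. S100a9 had a UMI in 6.33% of 648 such young cells (160.8 CPM) and in 40.6% of 406 such old cells (585 CPM). Cells with markers of several groups other than granulocytes had Lcn2 at 8.71 CPM in the young and 38.1 CPM in the old library, and the top old cell held 56 of the 450 UMIs.

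The cell with most Prtn3 was an old cell named monocyte and macrophage-like, the only one of its group in that library. It held 28 Prtn3 UMIs among 31496 UMIs, with 1 UMI of Ctsg and 0 of Mpo and Elane. In the young library the highest cell was erythroid-like, with 5 Prtn3 UMIs among 45563.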
